A study of Mus musculus with 13 samples.

Results

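Type I interferon-stimulated genes were followed in sorted splenic dendritic cells as a list of 36 genes, of which 35 had a probe set of their own on the array and are described here. They were taken from 22180 genes that could be named, and the brightest probe set on average stood for a gene with several. RNA came from CD205+CD8+ dendritic cells of C57Bl/6 littermates labelled male, and 13 arrays were hybridised. At 6 weeks of age each mouse was given, under the skin, B16 melanoma cells that secrete Flt3L, the cytokine by which dendritic cells multiply, and 5 days after that it was injected into the peritoneum. The injection was 100 ul of PBS with 50 ug of muramyl dipeptide (MDP), a piece of bacterial peptidoglycan sensed by NOD2, or PBS alone, and spleens were collected after 24 h. The cells were then divided by surface CD103, an integrin chain encoded by Itgae. The groups were MDP CD103 high (n = 3), MDP CD103 low (n = 3), PBS CD103 high (n = 3) and PBS CD103 low (n = 4). All mice carried the tumour, so no group shows cells without Flt3L expansion. Since CD103 was read after the injection, the cells inside a gate may not be the same in MDP and in PBS mice. On the log2 scale of the array, Itgae read 11.35 ± 0.21 in MDP CD103 high, 10.13 ± 0.52 in MDP CD103 low, 10.15 ± 0.08 in PBS CD103 high and 7.92 ± 0.41 in PBS CD103 low (SD, n = 3, 3, 3 and 4). The MDP CD103 low cells were thus near the PBS CD103 high cells in the Itgae transcript. The gate was set on the surface protein, which the arrays do not measure. Itgae was higher with MDP in the high gate (1.20 ± 0.25, limma adjusted p = 0.029) and in the low gate (2.21 ± 0.23, limma adjusted p = 0.00838). The sources used here do not say whether the arrays of a group are all separate mice, so part of the spread behind the p-values may be technical.

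Type I interferons, a family of IFN-α proteins and IFN-β, bind a receptor made of IFNAR1 and IFNAR2. The receptor's kinases JAK1 and TYK2 then phosphorylate STAT2, which joins IRF9 in the complex ISGF3 and so reaches the interferon-stimulated response element in front of many genes. The induced proteins detect viral RNA, block its translation or replication, and feed back on the pathway: IRF7 raises further interferon production and USP18 dampens the receptor. Dendritic cells of the CD8+ type, known as cDC1, need type I interferon signals to present the antigens of dead cells to CD8 T cells.

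Values are log2 expression values, so a difference of 1 is a doubling. The median over all genes was 5.27, and array medians lay between 5.26 and 5.31. As a measure of background, 1105 olfactory receptor genes had a 95th percentile of 5.12. The sorted surface proteins had high transcript levels, with Cd8a at a mean of 10.37 and Ly75, the gene of CD205, at 9.30. Of 11 measured cDC1 markers, 11 lay above that background percentile. Xist, a transcript of female cells, went against the male label in 7 arrays, where it read 10.98 to 11.21. In the other 6 it read 4.47 to 6.69. The mean of the Y chromosome genes Eif2s3y, Kdm5d and Uty ran opposite to Xist. It was 3.50 to 4.39 on those 7 arrays and 7.85 to 8.21 on the other 6. The 7 arrays were replicates 3 and 4 of MDP CD103 high, replicate 3 of MDP CD103 low, replicates 4 and 5 of PBS CD103 high, and replicates 1 and 4 of PBS CD103 low. Every group thus held arrays of both kinds, so the arrays of a group did not all come from the same mouse. Results are therefore also given by Xist class, a division made from the data and not by the study.

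Promoter windows show how interferon-response sequences are spread over the members. RefSeq windows of build GRCm38.p6, from 250 bases before to 50 bases after a gene's start, were found for 26 of the 35 members. The core of the response element was searched as GAAANNGAAA on either strand, where its other strand reads TTTCNNTTTC, and overlapping matches were counted. A match was present in 12 of the 26 members (46.2%), against 1079 of 27025 genes with a window (3.99%). The members with a match were Bst2, Ddx60, Eif2ak2, Ifih1, Ifit1, Ifit3, Isg15, Oas3, Rsad2, Slfn5, Stat2 and Trim30a. A match is a description of the letters and not a binding site, and no match says only that these letters were not in the window.

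The 250 bases before 1 transcript start are printed for Ifit1, Slfn5 and Oasl2 and for Isg15, a standard reporter of the response. The first 3 had the smallest p-values for the difference between MDP and PBS in CD103 high cells. Each runs 5′ to 3′ on the gene's own strand, and capitals mark the matches.
Ifit1, chr19:34640639-34640888, plus strand, 2 matches: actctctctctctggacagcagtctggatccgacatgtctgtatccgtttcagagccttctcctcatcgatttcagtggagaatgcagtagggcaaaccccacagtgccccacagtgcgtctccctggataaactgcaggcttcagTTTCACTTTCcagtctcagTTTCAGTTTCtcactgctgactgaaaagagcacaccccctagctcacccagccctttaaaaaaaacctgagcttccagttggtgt
Slfn5, chr11:82951852-82952101, plus strand, 1 match: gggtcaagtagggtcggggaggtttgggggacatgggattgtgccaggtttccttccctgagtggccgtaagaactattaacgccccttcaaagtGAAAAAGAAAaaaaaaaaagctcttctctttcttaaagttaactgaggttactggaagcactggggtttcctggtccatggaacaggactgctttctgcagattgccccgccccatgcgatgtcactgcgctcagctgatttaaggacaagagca
Oasl2, chr5:114896684-114896933, plus strand, 0 matches: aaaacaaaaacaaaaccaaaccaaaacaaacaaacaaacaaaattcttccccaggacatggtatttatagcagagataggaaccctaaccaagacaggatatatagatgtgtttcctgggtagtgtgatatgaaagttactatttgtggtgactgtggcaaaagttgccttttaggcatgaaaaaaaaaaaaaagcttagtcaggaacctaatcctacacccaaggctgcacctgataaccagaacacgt
Isg15, chr4:156200819-156201068, minus strand, 3 matches: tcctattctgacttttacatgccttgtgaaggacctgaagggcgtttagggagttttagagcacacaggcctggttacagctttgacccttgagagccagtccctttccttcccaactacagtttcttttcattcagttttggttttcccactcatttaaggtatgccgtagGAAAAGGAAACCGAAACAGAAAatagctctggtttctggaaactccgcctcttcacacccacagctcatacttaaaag
Counted from the start, with negative positions before it, the matches of Ifit1 lay at -104 to -95 and at -85 to -76. The 3 matches of Isg15 overlapped and together covered -78 to -57. The match of Slfn5, at -155 to -146, opens a run of A. The annotated Slfn5 gene begins at 82951349, before the printed bases, so these lie inside the gene, before a later start. The annotated Oasl2 gene begins at 114896926, near the end of its printed bases.

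The members were on the whole well above background in these cells. Their means over the 13 arrays had a median of 7.44, and 32 of 35 lay above the olfactory 95th percentile. The exceptions were Ifit2 at 4.76, Rtp4 at 4.52 and Ddx60 at 3.35. A level of a probe set depends on its probes, so the order below orders probe set values and not transcript numbers. Sp100, a protein of nuclear bodies, had the highest mean, with 10.30, 10.45 and 10.32 in MDP CD103 high, 10.30, 10.38 and 10.50 in MDP CD103 low, 10.59, 10.57 and 10.26 in PBS CD103 high, and 10.59, 10.35, 10.59 and 10.33 in PBS CD103 low. Those groups overlapped throughout. Of its other probe sets, those at means of 5.55, 6.13 and 8.32 followed the used set over the 13 arrays with r of 0.13, 0.74 and 0.79. After Sp100 came Bst2 (10.11), Ifi35 (10.02), Irf7 (9.81), Trim25 (9.58), Stat2 (9.56), Irf9 (9.05) and Adar (9.02). Ifi35 has another probe set at a mean of 5.28, which did not follow the used set (r = -0.27, n = 13 arrays).

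The lowest level was that of Ddx60, a helicase that aids RNA sensing. It read 3.28, 3.33 and 3.26 in MDP CD103 high, 3.33 in all 3 arrays of MDP CD103 low, 3.50, 3.42 and 3.33 in PBS CD103 high, and 3.40, 3.33, 3.63 and 3.07 in PBS CD103 low. All of these values were below the background percentile, so Ddx60 enters the counts over the list but none of its differences is described. The standard deviation over arrays was lowest for Samd9l, a restriction factor of poxviruses, at 0.11. Samd9l read 7.19, 7.38 and 7.34 in MDP CD103 high, 7.18, 7.32 and 7.50 in MDP CD103 low, 7.39, 7.35 and 7.40 in PBS CD103 high, and 7.41, 7.34, 7.56 and 7.30 in PBS CD103 low. Its groups overlapped in every comparison.

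The members moved together from array to array, also after differences between group means were removed. After each array was set against its group mean, the mean correlation between pairs of members was 0.60 over 595 pairs, and 531 pairs (89.2%) were above 0. Over all genes the mean was 0.002, over the 11716 genes above the olfactory percentile it was 0.02, and over 64 other interferon-stimulated genes it was 0.33. These correlations rest on the same 13 arrays and share their hybridisation and normalisation. They pool the groups and were not computed for each group. The mean of the members per array had an SD of 0.28 in PBS CD103 high and 0.32 in PBS CD103 low. That SD was 0.12 in MDP CD103 high and 0.08 in MDP CD103 low, so the PBS arrays weigh most. Usp18 and Zbp1 had the highest mean correlation with the other members, each at 0.76. Ifit3 (-0.44) and Trim25 (-0.25) were the members that ran against the rest. In PBS mice both had a lower mean with high than with low Xist, by -0.14 for Ifit3 and -0.10 for Trim25.

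The mean of the 35 members on each array sums this up. It was 7.18, 7.42 and 7.30 in MDP CD103 high, 7.49, 7.37 and 7.51 in MDP CD103 low, 7.72, 7.73 and 7.24 in PBS CD103 high, and 7.74, 7.30, 7.81 and 7.15 in PBS CD103 low. The 6 MDP arrays thus lay within the range of the PBS arrays, of which 4 were above every MDP array. Group means were 7.30 ± 0.12 in MDP CD103 high, 7.46 ± 0.08 in MDP CD103 low, 7.56 ± 0.28 in PBS CD103 high and 7.50 ± 0.32 in PBS CD103 low (SD, n = 3, 3, 3 and 4). On replicates 1 and 4 of PBS CD103 low, 35 and 34 of the 35 members were above their own mean over the 13 arrays, and on replicates 3 and 6 of the same group 6 and 2 were.

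**Figure D1:**
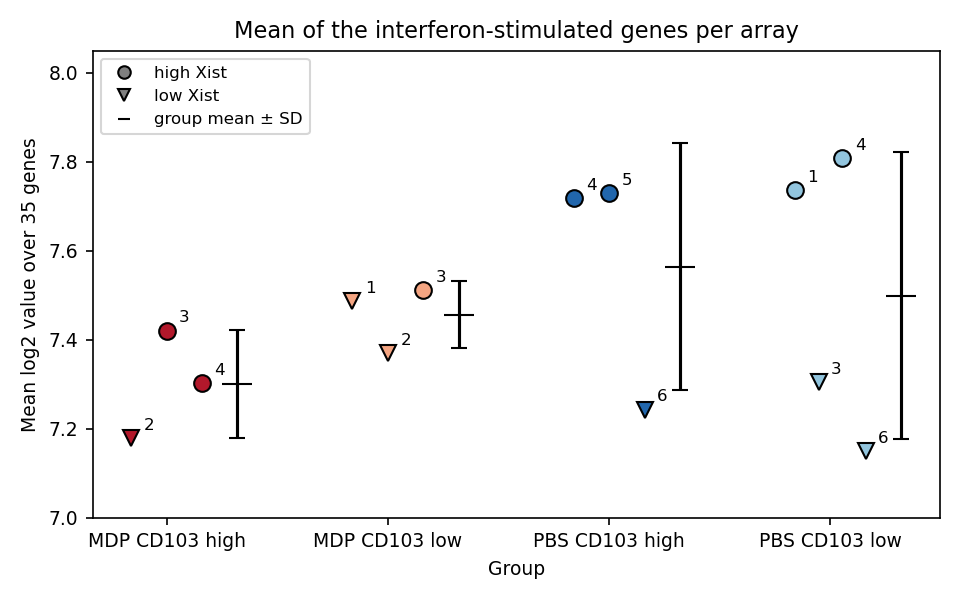
Mean log2 value of the 35 members on each array, as points, by group, with bars for the group mean ± SD (n = 3 arrays, and 4 in PBS CD103 low). The axis does not start at 0. The PBS arrays fall at 7.72 to 7.81 or at 7.15 to 7.30, and the MDP arrays lie at 7.18 to 7.51.

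**Figure D2:**
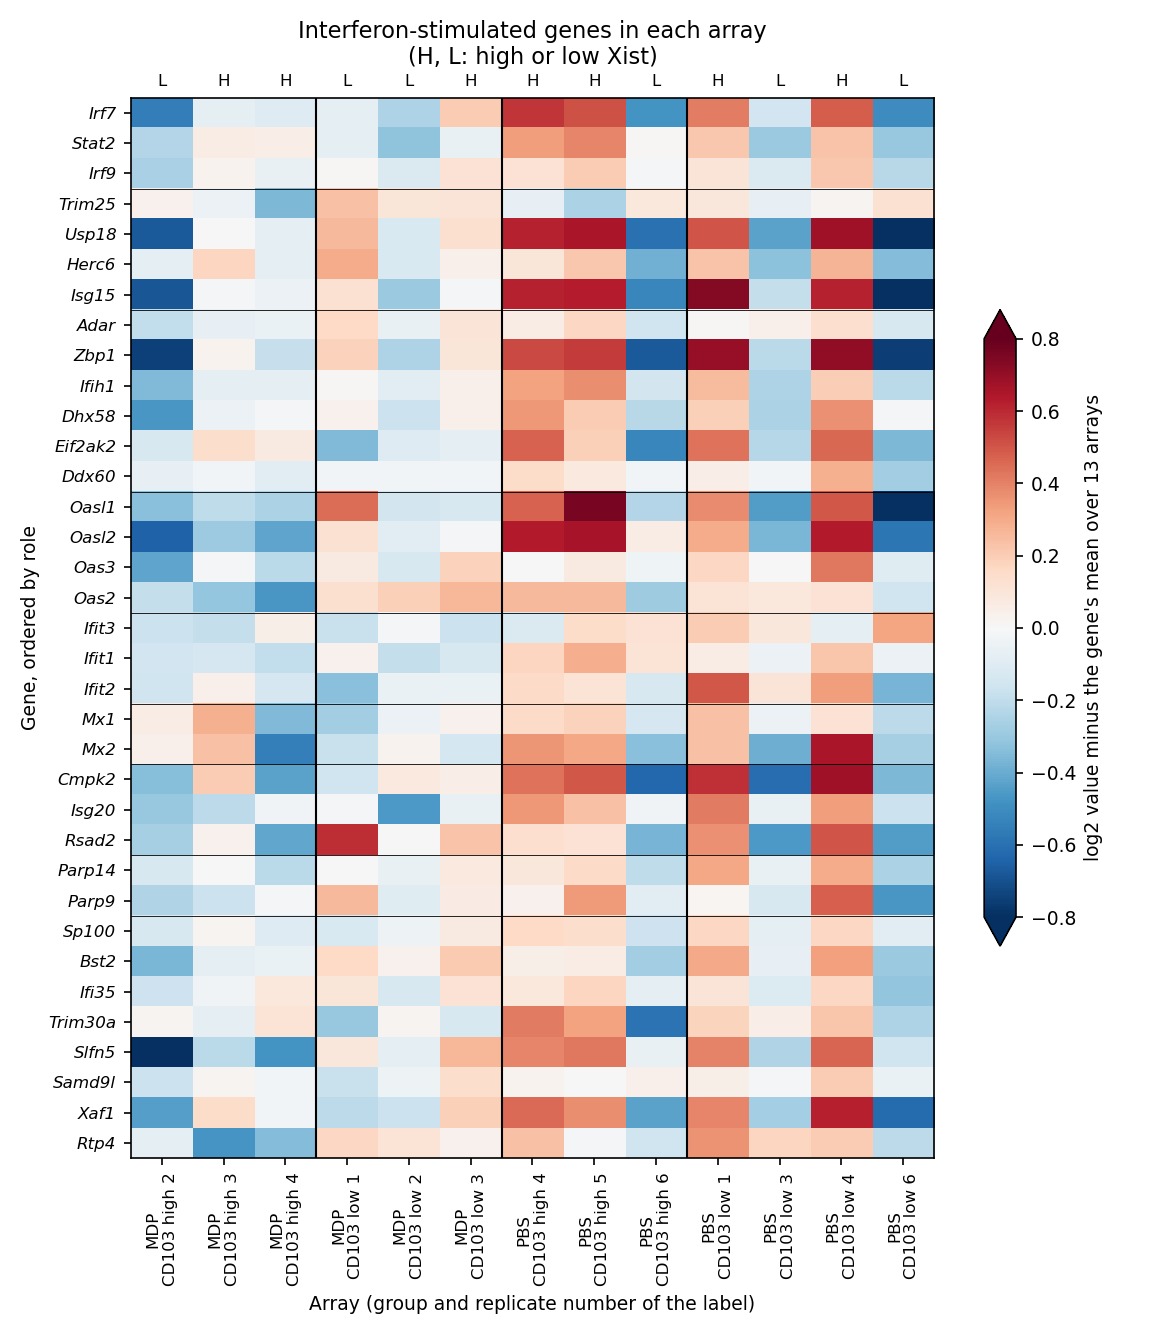
Log2 value of each member on each array minus that member's mean over the 13 arrays, with the groups from left to right MDP CD103 high, MDP CD103 low, PBS CD103 high and PBS CD103 low, and H or L for high or low Xist. Nearly the whole list is above its mean in 2 of 3 PBS CD103 high and 2 of 4 PBS CD103 low arrays.

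In PBS mice this division followed the Xist class. The 4 PBS arrays with high Xist had member means of 7.72 to 7.81 and the 3 with low Xist had 7.15 to 7.30. In 29 of 35 members all PBS arrays with high Xist were above all those with low Xist, against 3.07% of all genes. The mean was higher with high Xist in 33 members, with a median difference of 0.44, where the median over all genes was 0.005. The classes mix CD103 high and low arrays, and the part of sex in the members' level was not tested.

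Usp18, the protease that removes ISG15 from proteins, had the largest such difference, at 1.27. In PBS mice it read 9.23, 9.26, 9.12 and 9.29 on arrays with high Xist and 8.02, 8.19 and 7.67 on those with low Xist. Isg15, the ubiquitin-like modifier itself, read 8.58, 8.60, 8.70 and 8.58 on arrays with high Xist and 7.45, 7.77 and 7.01 on those with low Xist. Neither gene had an array of one class within the range of the other. In MDP mice the division was not seen at this size: 4 of 35 members had all arrays with high Xist above all with low Xist, against 4.35% of all genes, and the median difference was 0.08. There Usp18 read 8.61, 8.54 and 8.74 with high Xist and 7.94, 8.87 and 8.49 with low Xist, so that the classes overlapped. Whether the difference between Xist classes itself differs between MDP and PBS was not tested.

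**Figure D3:**
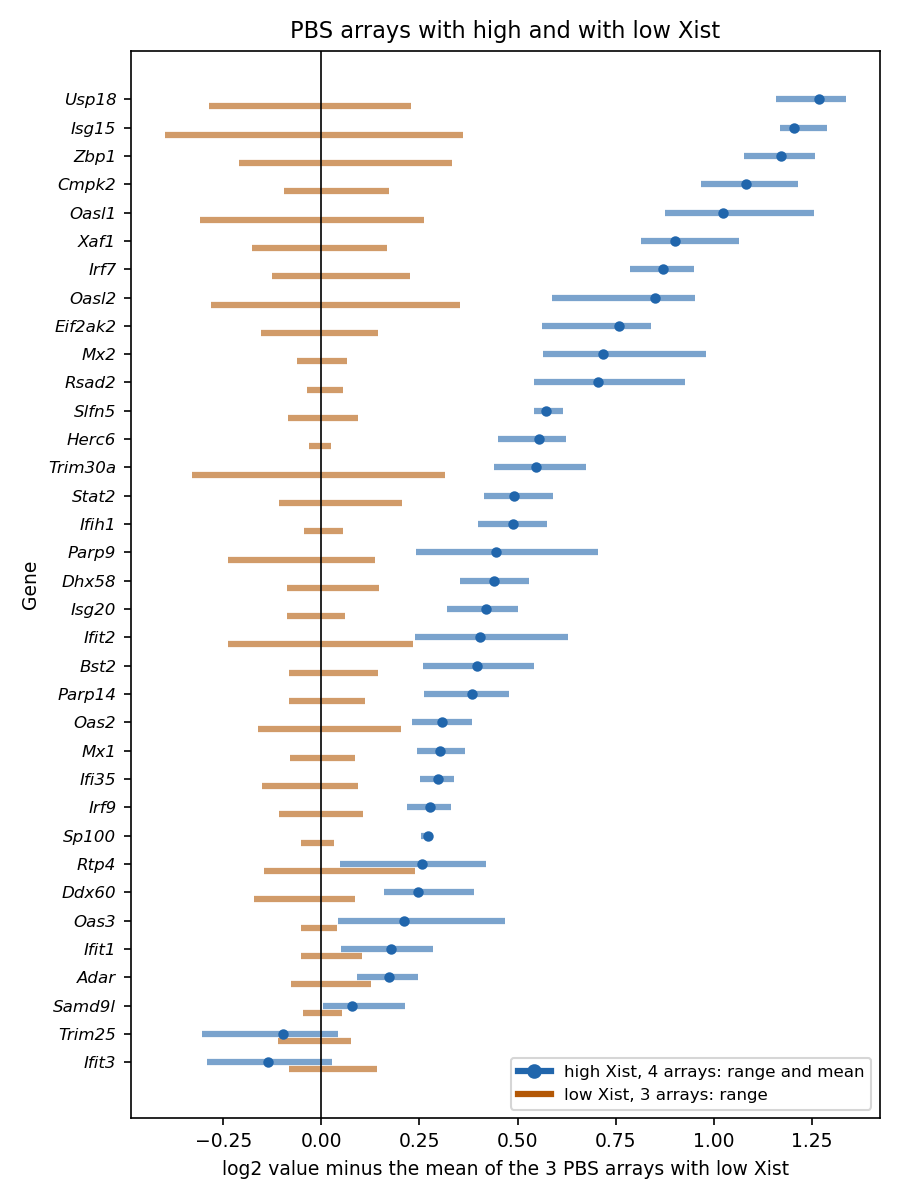
Log2 value of each member on the 7 PBS arrays minus its mean over the 3 with low Xist. Lines give the range over the 4 arrays with high Xist, with a point for their mean, and the range over the 3 with low Xist. The ranges are apart in 29 of the 35 members.

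The comparison of MDP with PBS in CD103 high cells asks whether the members' levels differ with the NOD2 ligand in the CD103-rich gate. In these cells 34 of 35 members had a lower mean in MDP than in PBS mice, but no member passed the test. The median log2 difference of the members was -0.23, from -0.91 to 0.03, and that of all genes was -0.01, with 53.7% of genes below 0. In limma, with Benjamini-Hochberg adjustment over all genes, 0 of 35 members had an adjusted p under 0.05, where 403 genes (1.82%) did, 315 of them higher and 88 lower in MDP mice. Without adjustment 7 members had p under 0.05, against 13.3% of all genes. In 3 members every MDP CD103 high array was below every PBS CD103 high array, against 10% of all genes. The count of members whose arrays do not overlap is thus close to the background.

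Ifit1, which binds viral RNA that lacks the host's cap marks, had the smallest p. It read 5.26, 5.28 and 5.22 in MDP CD103 high, against 5.59, 5.71 and 5.53 in PBS CD103 high. All MDP arrays were below all PBS arrays, near the background percentile of 5.12. The log2 difference was -0.35 ± 0.09 (SE, limma adjusted p = 0.0729). It passed the threshold without replicate 1 of MDP CD103 low, an array outside this pair that feeds the shared spread (adjusted p = 0.0488). Over 24 alternatives its adjusted p ran from 0.0283 to 0.788.

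Slfn5, a nuclear protein of the Schlafen family, read 7.07, 7.66 and 7.40 in MDP CD103 high, against 8.27, 8.31 and 7.82 in PBS CD103 high. The groups did not overlap. Another probe set, which Slfn5 shares with Slfn5os, had a mean of 4.80, below background, and hardly followed the used set (r = 0.20, n = 13 arrays). Its means were 4.71 in MDP CD103 high and 4.81 in PBS CD103 high. In the used set the log2 difference was -0.75 ± 0.21 (SE, limma adjusted p = 0.105), a fold of 0.593. With the Xist class as a term of the fit, Slfn5 was lower in MDP CD103 high cells by the same -0.75, with an SE of 0.10 (adjusted p = 0.00542). Over the alternatives its adjusted p ran from that value to 0.678. The fit with the Xist class shares 1 Xist term between PBS and MDP arrays, and the classes were named after their values were seen. Between these classes Slfn5 differed by 0.57 in PBS mice and by 0.12 in MDP mice.

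Oasl2, a mouse oligoadenylate synthetase-like protein, had the largest difference of the list. It read 5.28, 5.63 and 5.50 in MDP CD103 high, against 6.56, 6.58 and 5.99 in PBS CD103 high. Again no MDP array reached a PBS array. The log2 difference was -0.91 ± 0.26 (SE, limma adjusted p = 0.121), a fold of 0.534. With the Xist class in the fit the SE was 0.18 (adjusted p = 0.0282, the lowest over the alternatives, where the highest was 0.678). The same limits of that fit hold here, since Oasl2 differed between Xist classes by 0.85 in PBS mice and by -0.04 in MDP mice.

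Oas2, which makes the oligoadenylates that switch on RNase L, read 4.93, 4.82 and 4.66 in MDP CD103 high, against 5.39, 5.39 and 4.84 in PBS CD103 high. Replicate 6 of PBS CD103 high lay among the MDP arrays, and all MDP values were below background. The log2 difference was -0.40 ± 0.14 (SE, limma adjusted p = 0.198), and without that replicate it was -0.58 (adjusted p = 0.0425). Over the alternatives it ran from -0.65 to 0.09, with the highest value between the arrays with low Xist, with adjusted p from 0.0425 to 0.96.

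**Figure D4:**
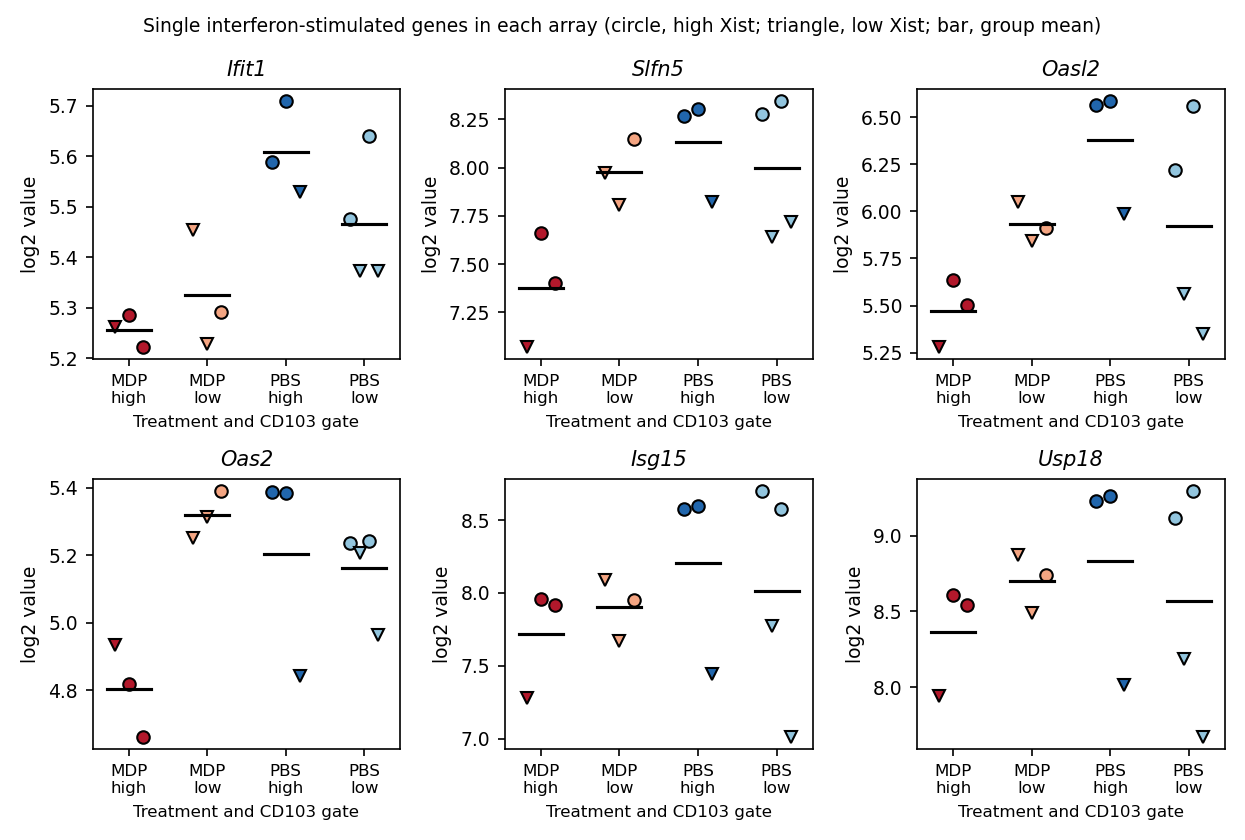
Log2 values of Ifit1, Slfn5, Oasl2, Oas2, Isg15 and Usp18 on each array, by group, as circles for high and triangles for low Xist, with bars for the group means. The axes do not start at 0. In Ifit1, Slfn5 and Oasl2 the 3 MDP CD103 high arrays lie below the 3 PBS CD103 high arrays, and in Isg15 and Usp18 these groups overlap.

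The transcription factors that carry the interferon signal were the next to be compared. Irf7 read 9.26, 9.74 and 9.71 in MDP CD103 high, against 10.39, 10.32 and 9.34 in PBS CD103 high. Its difference was -0.44 ± 0.29 (limma adjusted p = 0.579). Replicates 4 and 5 of PBS CD103 high were above the MDP arrays and replicate 6 was below 2 of them. Stat2 read 9.33, 9.62 and 9.62 in MDP CD103 high, against 9.90, 9.96 and 9.57 in PBS CD103 high, a difference of -0.28 ± 0.16 (limma adjusted p = 0.506). Irf9, the DNA-binding part of ISGF3, read 8.79, 9.08 and 8.99 in MDP CD103 high, against 9.17, 9.25 and 9.04 in PBS CD103 high, a difference of -0.20 ± 0.12 (limma adjusted p = 0.52). All 3 factors overlapped between the groups through the same PBS replicate 6.

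In the ISG15 system, Isg15 and Usp18 had the largest SDs of the list over the 13 arrays, each 0.54. Isg15 read 7.28, 7.96 and 7.92 in MDP CD103 high, against 8.58, 8.60 and 7.45 in PBS CD103 high, with a difference of -0.49 ± 0.40 (limma adjusted p = 0.676). Usp18 read 7.94, 8.61 and 8.54 in MDP CD103 high, against 9.23, 9.26 and 8.02 in PBS CD103 high, with a difference of -0.47 ± 0.41 (limma adjusted p = 0.695). In both genes replicate 6 of PBS CD103 high sat within the MDP range. Herc6, the mouse ligase that attaches ISG15, was the member with a difference above 0, at 0.03 ± 0.20. Trim25, a ubiquitin ligase that helps the RNA sensor RIG-I, differed by -0.05 ± 0.11.

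Among the 6 sensors of RNA and DNA, Ddx60 was below background, and the differences of the other 5 were below 0. The largest were those of Zbp1, a sensor of Z-form nucleic acid that can start necroptosis (-0.44 ± 0.40), and of Ifih1, the long-RNA sensor MDA5 (-0.35 ± 0.16, limma adjusted p = 0.373). Dhx58, which encodes its partner LGP2, differed by -0.28 ± 0.18. Adar, the editor of double-stranded RNA, differed by -0.13 ± 0.10, and Eif2ak2, the kinase PKR that stops translation, by -0.02 ± 0.25.

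The oligoadenylate synthetase family had the lowest median of the role groups, at -0.50 over 4 members. Beside Oas2 and Oasl2 it holds Oasl1, which in mice restrains the translation of Irf7 (-0.59 ± 0.32, limma adjusted p = 0.477), and Oas3 (-0.23 ± 0.14, limma adjusted p = 0.529). The IFIT proteins had a median of -0.15 over 3 members. Mx1 and Mx2, GTPases that trap viral particles, differed by -0.07 ± 0.16 and -0.20 ± 0.27. Mx1 of C57BL/6 mice is known to carry a deletion and to give no working protein.

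The enzymes of nucleotides and RNA had a median of -0.29 over 3 members. Isg20, an exonuclease of RNA, read 7.02, 7.11 and 7.30 in MDP CD103 high, against 7.67, 7.56 and 7.30 in PBS CD103 high, and differed by -0.36 ± 0.17 (limma adjusted p = 0.374). The highest MDP array met the lowest PBS array. Cmpk2, a mitochondrial nucleotide kinase, differed by -0.29 ± 0.35, and Rsad2 (viperin), which makes a chain-ending nucleotide, by -0.17 ± 0.26. Parp14 and Parp9, which modify proteins with ADP-ribose, differed by -0.13 ± 0.14 and -0.24 ± 0.19. The 8 other effectors had a median of -0.11 and all lay below 0. They include Bst2 (tetherin, which holds virions at the cell surface) at -0.11 ± 0.16, Xaf1, a binder of the apoptosis inhibitor XIAP, at -0.24 ± 0.31, and Rtp4, a chaperone of receptors, at -0.32 ± 0.14.

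**Figure D5:**
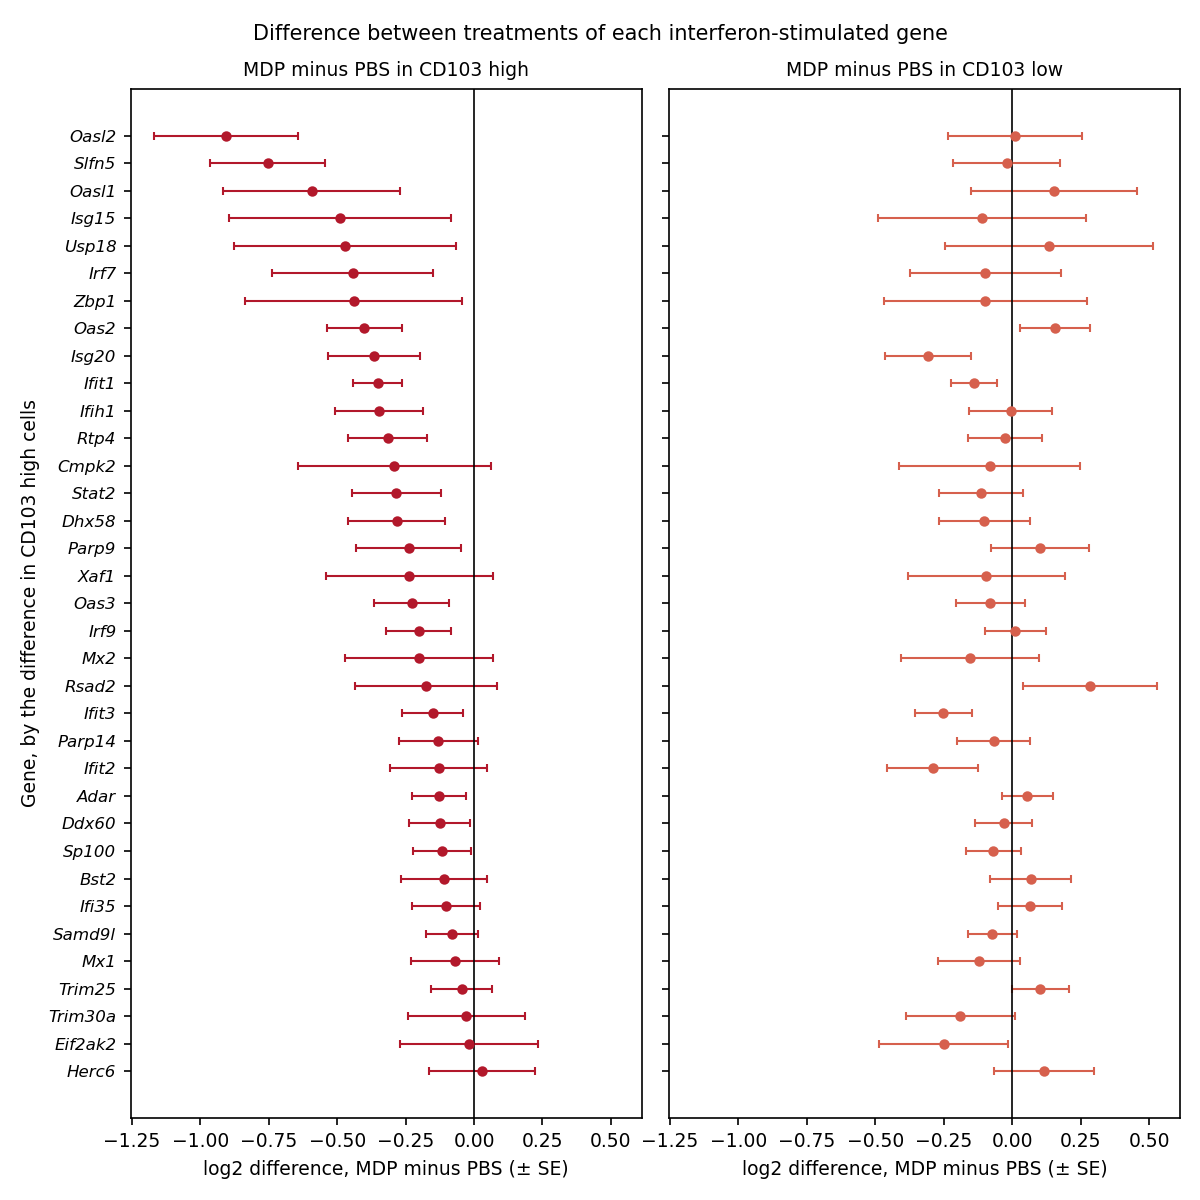
Log2 difference between MDP and PBS for each member, with its SE from limma, in CD103 high and in CD103 low cells. Members are ordered by their difference in CD103 high cells. In CD103 high cells 34 of 35 differences are below 0, and in CD103 low cells 23 are.

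Several measures moved with this comparison. In the members' array mean the MDP CD103 high and PBS CD103 high groups differed by -0.26, and the pooled SD within groups was 0.24. Without replicate 6 of PBS CD103 high that difference was -0.42, and without replicate 5 of the same group it was -0.18. The median of the members was -0.35 without replicate 6, -0.12 without replicate 5 and -0.14 without replicate 2 of MDP CD103 high. Each of these groups held 2 arrays with high and 1 with low Xist. Between the arrays with high Xist, 35 of 35 members were lower in MDP CD103 high, with a median of -0.31, where 51.2% of all genes were below 0. Between the arrays with low Xist, 1 of each group, 24 of 35 were below 0, with a median of -0.07, where 52.8% of all genes were.

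Markers of other cell types and states were measured beside the members. A list of 27 genes of CCR7-positive mature dendritic cells had a mean of 7.34 ± 0.08 in MDP CD103 high and 8.0 ± 0.16 in PBS CD103 high (SD, n = 3 each), and 5 of its genes (Birc3, Ccl5, Ccr7, Cd80 and Relb) were lower with adjusted p under 0.05 in limma. Of 12 measured markers of plasmacytoid dendritic cells, a main source of interferon, 7 were below 0 and 5 above 0, with a median of -0.06. Cd300c (-0.96 ± 0.14) and Pacsin1 (-0.77 ± 0.14) were those that passed in limma and were lower in MDP CD103 high. The mean of all 12, which holds both of them, ranged from 5.82 to 5.88 in MDP CD103 high and from 5.92 to 6.08 in PBS CD103 high, while Siglech, a defining marker, was near background at a mean of 5.21. The monocyte list had a mean of 6.05 ± 0.08 in MDP CD103 high and 6.13 ± 0.05 in PBS CD103 high (SD, n = 3 each). The part of these cells in the members' values was not tested, and in sorted bulk RNA fewer cells of a type and less RNA per cell cannot be told apart.

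In CD103 low cells the members showed no common direction between MDP and PBS. Their median difference was -0.07, from -0.31 to 0.28, with 23 of 35 below 0, and the median over all genes was 0.00 with 48.5% below 0. In limma 0 of 35 members and 1 of 22180 genes (0.00451%) passed the threshold, and 1 member and 6.06% of all genes had an unadjusted p under 0.05. The array means were 7.46 in MDP and 7.50 in PBS mice, a difference of -0.04. The median of the members was 0.05 without replicate 1 of PBS CD103 low, 0.06 without replicate 4 and 0.01 without replicate 2 of MDP CD103 low, so its sign rests on single arrays. By Xist class it was -0.24 among arrays with high Xist (1 MDP and 2 PBS arrays), with 31 members below 0. Among those with low Xist (2 MDP and 2 PBS arrays) it was 0.15, with 7 below 0. With the Xist class in the fit it was 0.02.

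Ifit3, which stabilises the IFIT complex, had the smallest p in CD103 low cells. It read 7.26, 7.43 and 7.27 in MDP CD103 low, against 7.64, 7.53, 7.36 and 7.76 in PBS CD103 low. The highest MDP array was above the lowest PBS array, and the difference was -0.25 ± 0.10 (SE, limma adjusted p = 0.803). Isg20 read 7.31, 6.87 and 7.27 in MDP CD103 low, against 7.74, 7.27, 7.66 and 7.15 in PBS CD103 low, a difference of -0.31 ± 0.16 (SE, limma adjusted p = 0.818). Ifit2, which is tied to apoptosis, read 4.42, 4.70 and 4.70 in MDP CD103 low, against 5.26, 4.86, 5.09 and 4.39 in PBS CD103 low, a difference of -0.29 ± 0.17 (SE, limma adjusted p = 0.826). Both overlapped widely, and most values of Ifit2 were below background. The 3 IFIT members were the role group furthest below 0 in this gate, with a median of -0.25. That median is the value of Ifit3, which ran against the other members from array to array (mean r of -0.44).

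Other members lay above 0 in CD103 low cells. Oas2 read 5.25, 5.31 and 5.39 in MDP CD103 low, against 5.24, 5.21, 5.24 and 4.96 in PBS CD103 low. It was the member in which every MDP array was above every PBS array, against 2.98% of all genes, and its difference was 0.16 ± 0.13 (SE, limma adjusted p = 0.862). The gap between the nearest arrays was small beside that error. Rsad2 had the highest difference, 0.28 ± 0.24 (limma adjusted p = 0.867). The regulators were close to 0, with -0.10 ± 0.27 for Irf7, 0.01 ± 0.11 for Irf9, -0.11 ± 0.15 for Stat2, 0.13 ± 0.38 for Usp18 and -0.11 ± 0.38 for Isg15.

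Whether the MDP response differs between the 2 gates was tested as an interaction, the MDP response in CD103 high minus that in CD103 low. No member passed: 0 of 35, against 16 of all genes (0.0721%), with 3 members at an unadjusted p under 0.05 where 9.63% of all genes were. The members' median was -0.18 and 30 of 35 lay below 0, where 52.7% of all genes did. Oas2 had the smallest p, with -0.56 ± 0.19 (SE, limma adjusted p = 0.326). Slfn5 followed with -0.73 ± 0.29 (SE, limma adjusted p = 0.426) and Oasl2 with -0.92 ± 0.36 (SE, limma adjusted p = 0.427). With 1 array left out the members' median ran from -0.27, without replicate 6 of PBS CD103 high or replicate 4 of PBS CD103 low, to -0.07, without replicate 6 of PBS CD103 low. A difference in response between the gates is therefore not shown for any member.

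Averaged over both gates, the MDP response had a median of -0.17, with 32 of 35 members below 0. The median was -0.25 without replicate 6 of PBS CD103 high, -0.08 without replicate 4 of PBS CD103 low and -0.11 with the Xist class in the fit. In this contrast 0 of 35 members passed, against 41 genes (0.185%). Ifit1 had the smallest p, with -0.25 ± 0.06 (SE, limma adjusted p = 0.127), and its MDP arrays in both gates ran from 5.22 to 5.45 where the PBS arrays ran from 5.37 to 5.71. Isg20 had -0.34 ± 0.12 (SE, limma adjusted p = 0.266) and Slfn5 -0.39 ± 0.14 (SE, limma adjusted p = 0.31). The 3 genes belong to different role groups.

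The comparison of the gates within MDP mice asks whether cells with more CD103 carry a different interferon program. In MDP mice 28 of 35 members had a lower mean in the CD103 high gate than in the low gate, with a median of -0.14, and 54.3% of all genes were below 0 with a median of -0.01. None of the 35 passed in limma, against 116 genes (0.523%), and 4 had an unadjusted p under 0.05, where 10.2% of all genes did. In 7 members, Bst2, Oas2, Oasl1, Oasl2, Rtp4, Slfn5 and Trim25, every CD103 high array was below every CD103 low array, against 7.93% of all genes. The members' median was -0.06 without replicate 2 of MDP CD103 high, -0.19 without replicate 3 of that group and -0.08 without replicate 3 of MDP CD103 low. With the Xist class in the fit it was -0.23. That fit shares 1 Xist term between PBS and MDP arrays. The members' median difference between Xist classes was 0.44 in PBS and 0.08 in MDP mice.

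Oas2 read 4.93, 4.82 and 4.66 in MDP CD103 high, against 5.25, 5.31 and 5.39 in MDP CD103 low. The gates were apart, with the CD103 high arrays below background and the CD103 low arrays just above it. The log2 difference was -0.51 ± 0.14 (SE, limma adjusted p = 0.146), and it passed without replicate 6 of PBS CD103 high (adjusted p = 0.0394, where the highest over the alternatives was 0.9). Slfn5 read 7.07, 7.66 and 7.40 in MDP CD103 high, against 7.97, 7.81 and 8.15 in MDP CD103 low, a difference of -0.60 ± 0.21 (SE, limma adjusted p = 0.319). With the Xist class in the fit it was -0.76 ± 0.10 (adjusted p = 0.0283, where the highest over the alternatives was 0.9). Between Xist classes Slfn5 differed by 0.57 in PBS mice but by 0.12 in MDP mice. The shared Xist term thus carries PBS values into this MDP difference of Slfn5. Rtp4 read 4.45, 4.04 and 4.17 in MDP CD103 high, against 4.68, 4.63 and 4.55 in MDP CD103 low, a difference of -0.40 ± 0.14 (SE, limma adjusted p = 0.336). All Rtp4 values were below background.

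The same 4 synthetase family members were all below 0 here, with a median of -0.39, as were the 4 members of the ISG15 system, with a median of -0.23. Usp18 read 7.94, 8.61 and 8.54 in MDP CD103 high, against 8.87, 8.49 and 8.74 in MDP CD103 low, and Isg15 read 7.28, 7.96 and 7.92 in MDP CD103 high, against 8.09, 7.67 and 7.95 in MDP CD103 low. Both overlapped, and their differences were -0.34 ± 0.41 and -0.19 ± 0.40. Xist was high on 2 of 3 MDP CD103 high arrays and on 1 of 3 MDP CD103 low arrays. With the Xist class in the fit the differences of Usp18 and Isg15 were -0.62 ± 0.25 and -0.46 ± 0.25 (limma adjusted p = 0.404 and 0.584). Between Xist classes Usp18 differed by 1.27 and Isg15 by 1.20 in PBS mice, but by 0.19 and 0.26 in MDP mice. The shared Xist term thus carries PBS values into these MDP differences. The transcription factors differed by -0.20 ± 0.29 for Irf7, -0.10 ± 0.12 for Irf9 and 0.11 ± 0.16 for Stat2. With the Xist class in the fit they were -0.43 ± 0.14 for Irf7, -0.18 ± 0.08 for Irf9 and -0.0039 ± 0.09 for Stat2 (limma adjusted p = 0.292, 0.453 and 0.995). The same limit holds there, since Irf7 differed between Xist classes by 0.87 in PBS mice and by 0.30 in MDP mice. Mature dendritic cell genes moved with this comparison too: their mean was 7.27 to 7.43 in MDP CD103 high, against 7.77 to 8.68 in MDP CD103 low, where replicate 1 read 8.68. Without that replicate the members' median was -0.11.

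In PBS mice the arrays of the gates overlapped in all 35 members. The median over the members was 0.04, from -0.12 to 0.46, with 11 of 35 below 0. None of the 35 passed in limma, against 17 genes (0.0766%), and 0 members had an unadjusted p under 0.05 where 8.52% of all genes did. The median was 0.20 without replicate 6 of PBS CD103 high, 0.11 without replicate 1 and 0.14 without replicate 4 of PBS CD103 low. It was -0.04 and -0.02 without replicate 4 or 5 of PBS CD103 high, and -0.0034 and -0.05 without replicate 3 or 6 of PBS CD103 low, and -0.02 with the Xist class in the fit, so its sign depends on single arrays and on that term. Oasl2 had the smallest p, with 6.56, 6.58 and 5.99 in PBS CD103 high, against 6.22, 5.56, 6.56 and 5.35 in PBS CD103 low, a difference of 0.46 ± 0.25 (SE, limma adjusted p = 0.663). Stat2 read 9.90, 9.96 and 9.57 in PBS CD103 high, against 9.78, 9.27, 9.79 and 9.26 in PBS CD103 low, a difference of 0.28 ± 0.15 (SE, limma adjusted p = 0.663). Ifit1 read 5.59, 5.71 and 5.53 in PBS CD103 high, against 5.48, 5.37, 5.64 and 5.37 in PBS CD103 low, a difference of 0.14 ± 0.08 (SE, limma adjusted p = 0.695). The gates overlapped in all 3 genes.

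Averaged over both treatments, CD103 high and low cells differed by a median of -0.02 over the members, with 21 of 35 below 0. The median was 0.05 without replicate 6 of PBS CD103 high and -0.08 without replicate 6 of PBS CD103 low, and -0.12 with the Xist class in the fit. None passed, against 28 genes (0.126%). The smallest p-values belonged to Rtp4 (-0.26 ± 0.10, limma adjusted p = 0.45), Trim25 (-0.20 ± 0.08, limma adjusted p = 0.45) and Oas2 (-0.24 ± 0.09, limma adjusted p = 0.454). Trim25, which ran against most of the list from array to array, read 9.62, 9.53 and 9.22 in MDP CD103 high, against 9.82, 9.68 and 9.69 in MDP CD103 low. It read 9.52, 9.33 and 9.66 in PBS CD103 high, against 9.67, 9.52, 9.60 and 9.70 in PBS CD103 low, where the gates overlapped.

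The genes above and around the members in the pathway were compared by lists. Of 16 measured type I interferon genes, 6 lay above the olfactory percentile and 0 passed in any of the 7 contrasts. Ifnb1, the gene of IFN-β, had means of 3.15 in MDP CD103 high, 3.11 in MDP CD103 low, 3.31 in PBS CD103 high and 3.36 in PBS CD103 low, all below background. Ifna1, with a mean of 7.24, and Ifna4, with 6.93, had the highest values of the IFN-α genes, which are near-identical in sequence, so their probe sets are uncertain as single genes. The receptor chains were well measured, with 9.46 ± 0.10 for Ifnar1 in MDP CD103 high, 9.83 ± 0.12 in MDP CD103 low, 9.49 ± 0.12 in PBS CD103 high and 9.59 ± 0.12 in PBS CD103 low (SD, n = 3, 3, 3 and 4). Ifnar1 differed by -0.37 ± 0.10 between CD103 high and low cells of MDP mice (limma adjusted p = 0.144), with no overlap. Ifnar2, Jak1 and Tyk2 had means of 9.71, 10.54 and 9.90 and overlapped between the groups in every comparison of a pair.

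None of the 10 genes of interferon receptors and JAK-STAT signalling, 5 other interferon regulatory factors, 16 genes of nucleic acid sensing and 15 negative regulators passed in any contrast. Between MDP and PBS in CD103 high cells their medians were -0.08, -0.03, -0.09 and -0.05. The smallest p-values there belonged to Ptpn2, a phosphatase that acts on JAK1 (-0.34 ± 0.09, limma adjusted p = 0.0752), and to Irf2, a repressor of interferon-stimulated genes (-0.34 ± 0.09, limma adjusted p = 0.0943). Socs1, the induced inhibitor of JAK kinases, differed by 0.07 ± 0.14. Nod2, the sensor of MDP, had means of 6.68 in MDP CD103 high, 6.80 in MDP CD103 low, 6.69 in PBS CD103 high and 6.64 in PBS CD103 low.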

How the data were processed

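RNA of 13 sorted cell samples was measured on Mouse Gene 2.0 ST arrays after pre-amplification, per the labels. The deposited values are log2 values per probe set, made by the authors with RMA in Affymetrix Expression Console, per the submitters' processing notes; versions and build: not given in the sources used here. Quantile normalisation in RMA makes array distributions alike, so a change shared by most genes would be removed. Samples were used where RNA quality sufficed, per the design text.

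Of 41345 probe sets, 23521 named 1 gene, 1814 named several and 16010 were not listed, which gave 22180 genes. Dtx3l shares its probe set with Parp9 and was left out. The members, roles and comparison lists were chosen with earlier results of these data known. Named in full were the 3 members with the smallest p in each contrast, those with extreme means or SDs, and 5 regulators. Some companion genes and the Xist classes were named after their values were seen.

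limma 3.58.1 in R 4.3.3 fitted 1 mean per group over all arrays (lmFit, contrasts.fit, eBayes; 9 residual and 3.86 prior degrees of freedom). Tests were two-sided, with Benjamini-Hochberg over 22180 genes of a contrast and a threshold of 0.05. The number of arrays limits the precision. Replicate numbers recur between groups: deviations of the 4 same-treatment pairs with a shared number correlated at 0.20 to 0.37, and those of the 5 pairs across treatments at -0.24 to 0.45. The highest pair across treatments, at 0.45, shared the Xist class. What the numbers mean is not stated. All 4 same-treatment pairs also share the Xist class, so number and Xist class cannot be told apart. If the numbers do pair arrays, the main fit leaves that pairing out. Python 3.11.15, pandas 2.3.3, numpy 2.4.6 and matplotlib 3.10.9 were used. No sample column lacked a match. In all, 24 alternatives were run. The Xist covariate was 1 term, shared by PBS and MDP arrays.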

Additional observations from a re-analysis of the deposited data

Results flagged for a closer look

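Of 18 results examined for a lone array in a group of 4, which means PBS CD103 low, 1 stood out. Oas2 read 4.96 on replicate 6 of PBS CD103 low, where the other 3 arrays read 5.21 to 5.24. Its gap to the nearest array was above Dixon's 95% critical value relative to the range of the group, which chance gives in about 1 group of 20. The value lies below the background percentile of 5.12.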

How the results depend on the processing

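No named member changed direction past a threshold, and no count of members fell, since the count was 0 in each contrast. Between MDP and PBS in CD103 high cells the count was 1 among genes above the olfactory percentile (Ifit1, adjusted p = 0.0283), 1 with array weights (Ifit1, adjusted p = 0.0357), 2 with the Xist class as a covariate, and 0 to 1 with an array left out. Between CD103 high and low cells of MDP mice it was 1 with the Xist class as a covariate and 0 to 1 with an array left out. The array mean of MDP minus PBS in CD103 low cells, -0.04, was 0.20 among arrays with low Xist. This alternative was chosen after seeing the data, as were those with high Xist and with the Xist class as a covariate. The causes were not tested. The other 158 counts, 165 medians and 45 array means stayed within the spread or the side of the threshold. With a replicate block by number, 0 members and 0 genes passed in each contrast. With a random replicate block by treatment and number (correlation 0.18) the median of the members between MDP and PBS in CD103 high cells was -0.22, no member's call changed, and 392 genes passed, and 190 genes between the gates of MDP mice, 41 in the interaction and 13 in the averaged MDP response. Counts over all genes between MDP and PBS in CD103 high cells ran from 0 to 699 over the alternatives. The 3 or 4 arrays of a group limit the precision: the median SE over all genes was 0.0754 to 0.151, by contrast.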

Other observations

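The 64 other interferon-stimulated genes, a list that shares no gene with the members, had array means of 7.38 ± 0.08 in MDP CD103 high, 7.55 ± 0.12 in MDP CD103 low, 7.60 ± 0.20 in PBS CD103 high and 7.52 ± 0.21 in PBS CD103 low (SD, n = 3, 3, 3 and 4). Their median difference between MDP and PBS was -0.18 in CD103 high cells, with 54 of 64 below 0, and 0.04 in CD103 low cells, with 26 below 0. Gbp10, a guanylate-binding GTPase that interferon-γ also induces, was the gene of that list that passed in limma. It was lower in MDP CD103 high than in PBS CD103 high (-1.13 ± 0.24, adjusted p = 0.029) and than in MDP CD103 low (-1.29 ± 0.24, adjusted p = 0.031), with means of 7.21 ± 0.07 in MDP CD103 high, 8.51 ± 0.70 in MDP CD103 low and 8.34 ± 0.03 in PBS CD103 high (SD, n = 3 each). Ifng itself was below background, at 4.22 in MDP CD103 high and 4.14 in PBS CD103 high, while the chemokine Cxcl9 read 9.94 ± 0.16 in MDP CD103 high and 10.73 ± 0.32 in PBS CD103 high (difference -0.79 ± 0.23, limma adjusted p = 0.13).

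The probe set shared by Dtx3l and Parp9 had means of 8.21 in MDP CD103 high, 8.48 in MDP CD103 low, 8.40 in PBS CD103 high and 8.40 in PBS CD103 low.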
